A study of Homo sapiens with 10 samples.

Results

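The proteasome subunit genes were followed through a chase of labelled RNA in K562, a cell line long established from a human myeloid leukaemia. They are the protein-coding genes PSMA1 to PSMA7, PSMB1 to PSMB7, PSMC1 to PSMC6, PSMD1 to PSMD14 and ADRM1, chosen by symbol. All 35 were found among 59204 human genes listed in the count tables, and all 35 passed the minimum mean count of 20 reads in both the total and the labelled RNA. The study asked how fast RNA was lost and how it responded when transcription was blocked. All cells took up 4-thiouridine at 30 µM for 12 h, in medium renewed every 3 h, and were then washed and chased with 3 mM uridine. The chase medium held DMSO (the solvent control), the BET bromodomain inhibitor JQ1 at 1 µM or the CDK9 inhibitor AZ-5576 at 1 µM, and cells were taken at 2, 4 and 8 h. A library taken at 0 h is the common start of the 3 arms, so there were 10 libraries and 1 library per condition (n = 1).

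The proteasome degrades proteins that carry ubiquitin chains. Its barrel, the 20S core, is built of rings of alpha subunits (PSMA genes), which gate the entrance, and rings of beta subunits (PSMB genes), of which PSMB5, PSMB6 and PSMB7 carry the protease sites. The 19S cap holds a ring of ATPases (PSMC genes), which unfold and thread the substrate. Its non-ATPase subunits (most PSMD genes and ADRM1) bind ubiquitin, remove it and hold the cap together. PSMD5, PSMD9 and PSMD10 are assembly chaperones of the ATPase ring and are counted here with the non-ATPase cap genes. The transcription factor NFE2L1, which binds antioxidant response elements with small MAF partners, is known to raise the subunit genes together when proteasome activity is short. Proteasome inhibitors that act on PSMB5 are used against blood cancers.

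Each library held between 10293371 and 16008906 human reads, of which 2031796 to 3868420 were called labelled, and between 1208073 and 2366155 reads of added fly RNA. Levels are given as reads per 1000000 fly reads of the same library. The fly RNA was added at 5% to purified RNA, so these levels are relative to that RNA. They do not show the number of cells or the amount of RNA per cell. The subunit genes together took between 0.919% (JQ1, 8 h) and 1.02% (DMSO, 8 h) of human reads. All 11 K562 erythroid markers had reads in every library, while between 3 and 5 of 12 markers of other cell types were at 0 and their summed level stayed between 2341 (AZ-5576, 8 h) and 6180 (DMSO, 8 h), against 83800 to 127784 for the K562 markers. Of the other markers, KRT8, KRT18 and EPCAM had clear levels at 0 h, at 2005, 1677 and 400, against 961 for the K562 marker GATA1. Most of the K562 sum of 102365 at 0 h was HBG1 at 46644 and HBG2 at 38191. The part of these markers in the results was not tested. In their fly genes the AZ-5576 2 h and the 0 h libraries stood apart, with a median correlation to the other libraries of 0.921 and 0.952, against 0.966 to 0.981 for the rest. Calls were therefore also made without either of them, and both counts are given beside each main one.

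The total RNA of the subunits differed widely in level before any inhibitor. At 0 h the highest level was that of PSMB6, the beta subunit with caspase-like activity, at 7029, and the lowest that of PSMD6, a cap subunit, at 216. Next to PSMB6 stood PSMB7, the trypsin-like beta subunit, at 6781, PSMB1 at 6519 and PSMC4, an ATPase, at 6154. PSMB5, the chymotrypsin-like subunit and drug target, had 1879. Of the subunits with known roles in ubiquitin handling, the receptor PSMD4 had 2272, the deubiquitinase PSMD14 1460 and the receptor ADRM1 1325. The lowest levels beside PSMD6 were those of PSMD10 at 243, PSMC6 at 253 and PSMD5 at 469. The 3′ end read levels of PSMB6 and PSMD6 thus differed by more than an order of magnitude. The libraries read transcript ends, so levels were not divided by transcript length, and how well each end is captured was not measured.

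**Figure D1:**
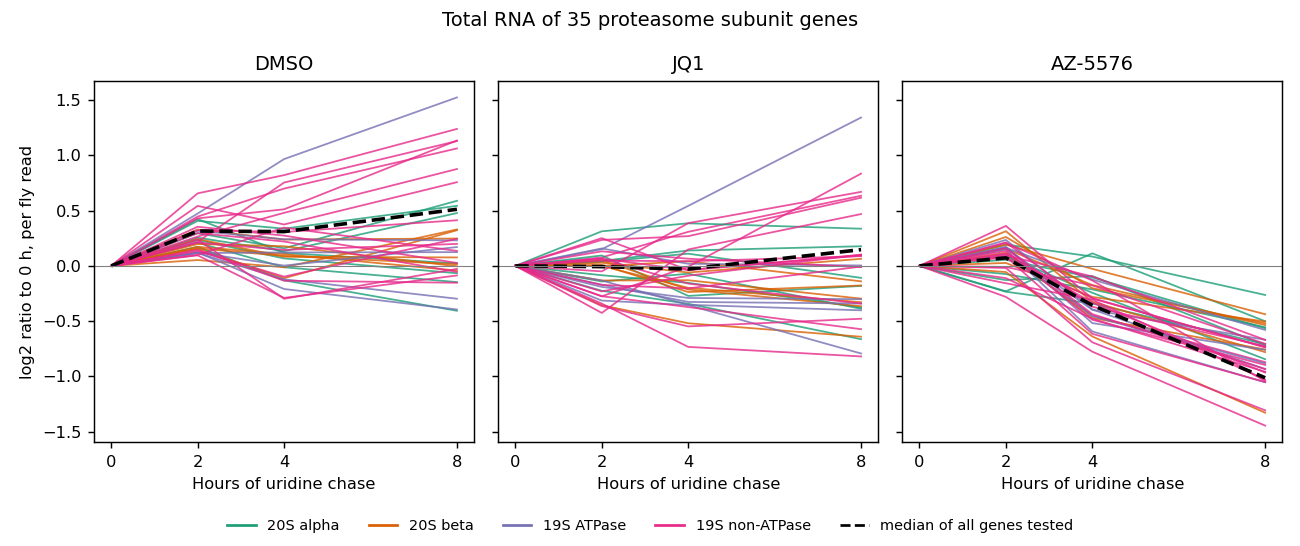
Total RNA of each of the 35 subunit genes against the 0 h library, per fly read, as a log2 ratio (vertical axis) over hours of chase (horizontal axis), with 1 panel per arm, 1 line per gene coloured by subcomplex and the median of all 11797 genes dashed. All 35 lines end below 0 at 8 h in AZ-5576, while in DMSO a group of mostly non-ATPase cap genes and PSMC6 climbs above the rest.

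In DMSO, 7 subunit genes rose over the chase and none fell. They were the ATPase PSMC6 and the cap genes PSMD3, PSMD5, PSMD6, PSMD9, PSMD11 and ADRM1, and no alpha or beta subunit was among them. PSMC6 went from 253 at 0 h to 351, 494 and 728 at 2, 4 and 8 h in DMSO, a slope of 0.19 log2 units per hour (SE 0.031, edgeR quasi-likelihood test, adjusted p = 0.000143). PSMD9, a chaperone that helps to build the ATPase ring, went from 876 to 1019, 1477 and 1916 (slope 0.16, SE 0.032, edgeR adjusted p = 0.00091). ADRM1 went from 1325 to 1805, 2152 and 2768 (slope 0.13, SE 0.026, edgeR adjusted p = 0.00105). Each of these 3 genes was higher at every later time than at the time before. PSMD5, also an assembly chaperone of the ATPase ring, went from 469 to 739, 829 and 1108, and PSMD3, a structural cap subunit, from 3772 to 4534, 5260 and 6924.

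Other members of the particle stayed near their 0 h level in DMSO. PSMB6 had 7029 at 0 h and 7922, 7564 and 6824 in DMSO (slope −0.019, SE 0.025), and PSMB7 had 6781 and then 7775, 7668 and 6764 (slope −0.025, SE 0.026). PSMC4 went from 6154 to 6667, 6693 and 6707 (slope 0.0072, SE 0.025). The lowest slopes were those of PSMC5, an ATPase, at −0.069 (SE 0.029) and PSMA4, an alpha subunit, at −0.065 (SE 0.026), neither past the threshold, with adjusted p of 0.076 and 0.0593 in edgeR. The slopes of PSMB5 and PSMD14 were both 0.036 (SE 0.026 each) and were not called. Over the 35 genes the median slope was 0.0081, against 0.046 for all genes tested, and the rises stand beside 24.5% of all genes called higher and 3.78% called lower. The count was 7 without the AZ-5576 2 h library and 7 without the 0 h library, but 1 without DMSO 8 h. TMM scaling sets each library to its own bulk of genes instead of to the fly reads. By TMM 6 were higher and 13 lower, beside 2012 higher and 1823 lower of all 11797 genes. A direction against 0 h is therefore stated here per fly read only. Samples of 1 condition were not repeated, and the p-values rest on the scatter of all 10 libraries around 3 straight lines.

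The promoters of the risers are shown because NFE2L1 and its relatives bind antioxidant response elements, whose core is TGACNNNGC. The search used both strands of the 250 bases before each RefSeq start (GRCh38.p14), a table that held 30 of the 35 genes with 37 starts and lacked PSMA7, PSMB1, PSMB6, PSMB7 and PSMD4. The core matched in 9 of 37 subunit windows (24.3%) and in 10.9% of all 35116 windows. The genes with a match were PSMA4, PSMB3, PSMC5, PSMD3, PSMD5, PSMD9, PSMD12 and ADRM1. Of the 7 risers in DMSO, PSMD3, PSMD5, PSMD9 and ADRM1 held a match and PSMC6, PSMD6 and PSMD11 did not, while PSMA4, PSMB3, PSMC5 and PSMD12 held one and were not called. The stretches printed are the part of each window upstream of the GENCODE v29 gene, read 5′ to 3′ along the gene's strand, with matches to the core or its reverse complement in capitals. PSMC6 is shown as the steepest riser with no match and PSMD12 as a gene with a match that did not rise. The ADRM1 windows lie within its annotated gene and are not printed.

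PSMD3 (chr17:39980557-39980796, plus strand): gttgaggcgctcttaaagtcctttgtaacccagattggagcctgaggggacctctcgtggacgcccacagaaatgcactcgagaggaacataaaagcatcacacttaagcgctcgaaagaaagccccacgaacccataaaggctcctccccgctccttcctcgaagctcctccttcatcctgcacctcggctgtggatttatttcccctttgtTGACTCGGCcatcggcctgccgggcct

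PSMD5 (chr9:120842985-120843172, minus strand): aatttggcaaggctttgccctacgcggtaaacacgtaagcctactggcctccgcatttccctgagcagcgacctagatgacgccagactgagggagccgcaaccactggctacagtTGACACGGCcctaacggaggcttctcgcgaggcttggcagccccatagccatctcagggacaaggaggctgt

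PSMD9 (chr12:121888540-121888730, plus strand): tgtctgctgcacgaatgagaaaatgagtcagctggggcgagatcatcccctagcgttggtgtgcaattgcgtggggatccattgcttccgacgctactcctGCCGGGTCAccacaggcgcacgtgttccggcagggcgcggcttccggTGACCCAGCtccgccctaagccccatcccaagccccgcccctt

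PSMD12 (chr17:67366628-67366827, minus strand): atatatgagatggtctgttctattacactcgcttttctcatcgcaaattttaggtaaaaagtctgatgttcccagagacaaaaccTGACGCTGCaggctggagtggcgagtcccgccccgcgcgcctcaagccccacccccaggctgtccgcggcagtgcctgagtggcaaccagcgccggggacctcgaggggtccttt

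PSMC6 (chr14:52706950-52707171, plus strand): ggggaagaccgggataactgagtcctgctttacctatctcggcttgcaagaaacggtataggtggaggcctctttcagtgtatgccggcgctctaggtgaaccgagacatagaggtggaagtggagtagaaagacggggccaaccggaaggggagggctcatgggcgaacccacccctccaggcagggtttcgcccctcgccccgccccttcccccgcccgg

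PSMD9 held 2 matches on opposite strands, at 149 and 102 bases before its RefSeq start, and PSMD3 held 1 at 37 bases. Other promoter motifs were also searched on both strands. CCAAT was found in 17 of 37 windows (45.9%, against 32.0% of all windows), and GGGCGG, the GC box, in 25 (67.6%, against 42.6%). CCGGAAG, a core bound by ETS factors, was in 7 (18.9%, against 8.52%), among them PSMC6, PSMD6, PSMD9 and PSMD12. TATAAA was in 4 (10.8%, against 10.7%). The motifs can overlap in places, and a match describes letters only.

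Under AZ-5576, 29 of the 35 subunit genes had a lower slope of total RNA than in DMSO and none a higher one. The cap genes held the largest differences. All 15 non-ATPase genes, which include the assembly chaperones PSMD5, PSMD9 and PSMD10, were lower, with a median difference of −0.15 log2 units per hour. Lower too were 4 of 6 ATPases (median −0.11), 6 of 7 beta subunits (−0.091) and 4 of 7 alpha subunits (−0.060). The 29 stand beside 73.3% of all genes called lower and 0.559% called higher, and the median of −0.12 lies above the −0.19 of all genes. At 8 h the subunits had a median of 48.5% of the DMSO level, against 32.2% for all genes, and all 35 were below DMSO. The count was 34 without the AZ-5576 2 h library and 30 without the 0 h library, but 10 without AZ-5576 8 h and 16 without DMSO 8 h. A model that holds 1 difference for all times called no subunit.

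**Figure D2:**
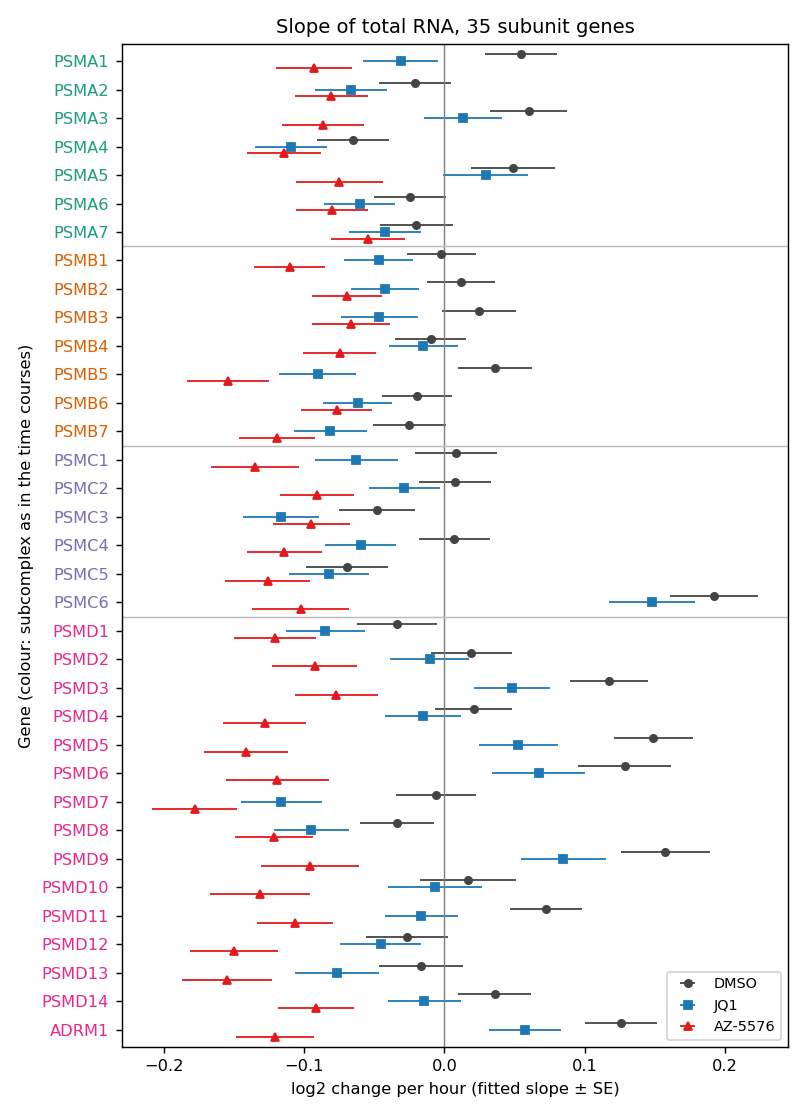
Fitted slope of total RNA in log2 units per hour (horizontal axis) for each subunit gene (rows, grouped by subcomplex) in DMSO, JQ1 and AZ-5576, with bars of 1 SE. The AZ-5576 slopes lie between −0.18 and −0.055 for all genes, whereas the DMSO slopes spread from −0.069 to 0.19, so the widest gaps are those of PSMC6, PSMD5, PSMD6, PSMD9 and ADRM1.

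PSMC6 had the largest difference. With AZ-5576 it had 285, 176 and 149 from the earliest to the latest time, against 351, 494 and 728 in DMSO, so the arms moved apart at every step. By 8 h it was at 20.5% of DMSO (exact 95% interval 18.2% to 23.1%, counting error only), and its slope differed by −0.29 (SE 0.036, edgeR adjusted p = 4.35e-07). PSMD5 had 434, 336 and 241 in AZ-5576 against 739, 829 and 1108 in DMSO, a slope difference of −0.29 (SE 0.032, edgeR adjusted p = 1e-07), and stood at 21.8% of DMSO at 8 h. ADRM1 had 1426, 971 and 724 against 1805, 2152 and 2768, a difference of −0.25 (SE 0.029, edgeR adjusted p = 2.4e-07). For these 3 genes every AZ-5576 library was below every DMSO library. PSMD6 and PSMD9 were at 23.3% and 24.5% of DMSO at 8 h, and PSMD3 at 32.7%. These 6 genes had all risen in DMSO, whose libraries both comparisons share.

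Of the protease subunits, PSMB5 had the largest difference. It had 1807, 1206 and 748 in AZ-5576, against 1949, 1862 and 2361 in DMSO and 1879 at 0 h, and at 8 h was at 31.7% of DMSO (29.9% to 33.5%). Its slope differed by −0.19 (SE 0.029, edgeR adjusted p = 6.78e-06). PSMB7 had 8425, 5412 and 3947 against 7775, 7668 and 6764, with a difference of −0.094 (SE 0.027, edgeR adjusted p = 0.00374). At 2 h PSMB5 was a little below and PSMB7 a little above the DMSO library, and at 4 and 8 h both were below it. PSMB6 had 8424, 6111 and 4900 against 7922, 7564 and 6824, and its difference of −0.057 (SE 0.026, edgeR adjusted p = 0.0516) did not pass the threshold. In the cap, PSMC4 differed by −0.12 (SE 0.027, edgeR adjusted p = 0.0004) and PSMD14 by −0.13 (SE 0.028, edgeR adjusted p = 0.000314).

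The smallest differences were in the core and the ATPase ring. PSMA7, an alpha subunit, had 3854, 3576 and 2810 in AZ-5576 against 4523, 3656 and 3426 in DMSO, and at 8 h was at 82.0% of DMSO (79.2% to 84.9%). Its slope difference was −0.035 (SE 0.027, edgeR adjusted p = 0.258). For PSMC3, an ATPase, the difference was −0.047 (SE 0.028, edgeR adjusted p = 0.141), and PSMA4, PSMA6 and PSMC5 also did not pass. PSMC3, PSMC5, PSMA4 and PSMA6 had slopes below 0 in DMSO as well. PSMA7 (chromosome 20, 62136735 to 62143440, minus strand) and ADRM1 (chromosome 20, 62302093 to 62308862, plus strand; GENCODE v29 on GRCh38) lie close together, yet were at 82.0% and 26.2% of DMSO at 8 h.

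Read against 0 h instead of DMSO, all subunits were lower at 8 h of AZ-5576, with a median of 59.2% of the starting level and a range in log2 ratio from −1.45 (PSMD7) to −0.26 (PSMA7). All but PSMA7 had a slope below 0 past the threshold (34 of 35, beside 69.2% of all genes lower and 0.356% higher), with a median of −0.11 against −0.13 for all genes. The count was 35 without the AZ-5576 2 h library, 34 without the 0 h library and 0 without AZ-5576 8 h. By TMM 7 were higher and none lower, beside 974 higher and 1579 lower of all 11797 genes. At 2 h, 25 of 35 were above their 0 h level, at a median of 108%, and by 4 h 33 were below it. All human reads per fly read went the same way, from 8.18 at 0 h to 9.01 at 2 h and 7.01 at 4 h. The 2 counts were not set against all genes. PSMD7, the structural partner of the deubiquitinase PSMD14, had the steepest slope, with 1723 at 0 h and 1418, 1005 and 632 in AZ-5576.

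Set against the bulk of genes in the same libraries, the subunits went both ways, as did genes in general. With TMM scaling, which moved the median of all genes from −0.19 to −0.020, 5 genes were lower than in DMSO, PSMC6 at −0.12, PSMD5 at −0.11, PSMD9 at −0.080, PSMD6 at −0.073 and ADRM1 at −0.072, all of them risers in DMSO. In the same fit 19 were higher, led by PSMA7 at 0.14, PSMC3 at 0.13 and PSMA4 at 0.13. They included 6 of the 7 beta subunits, with PSMB6 at 0.12. Of all 11797 genes in that fit, 3253 were lower and 2434 higher. The median slope difference of the subunits turned to 0.052. The fall against DMSO is therefore a statement per fly read.

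JQ1 moved fewer subunits. Against DMSO, 5 of 35 had a lower slope of total RNA and none a higher one, beside 16.2% of all genes lower and 1.79% higher, and the median difference of −0.051 equalled that of all genes. The 5 were PSMB5, PSMD7, PSMD5, PSMD11, a lid subunit of the cap, and PSMA1, an alpha subunit. PSMB5 had 1468, 1311 and 1204 in JQ1 against 1949, 1862 and 2361 in DMSO, and at 8 h was at 51.0% (48.4% to 53.8%). Its slope differed by −0.13 (SE 0.029, edgeR adjusted p = 0.00412). PSMD7 had 1360, 1036 and 976 against 2031, 1401 and 1690, a difference of −0.11 (SE 0.030, edgeR adjusted p = 0.0141). For both genes every JQ1 library was below every DMSO library.

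All 35 slope differences were below 0 under JQ1, as was the median of all genes (−0.051), but most were within the spread. By TMM the subunit median was 0.0015 and 1 subunit was called, beside 911 lower and 648 higher of all 11797 genes. Of the other panel genes, PSMC4 was at −0.067 (SE 0.027, edgeR adjusted p = 0.084), ADRM1 at −0.068 (SE 0.028, 0.0923), PSMB7 at −0.056 (SE 0.027, 0.148), PSMD14 at −0.050 (SE 0.027, 0.209) and PSMB6 at −0.042 (SE 0.026, 0.26). The differences nearest to 0 were those of PSMB4, a beta subunit, at −0.0053 (SE 0.026) and PSMC5 at −0.013 (SE 0.030). Set against DMSO, the median subunit level was 80.9% after 2 h (all genes 79.8%), 84.8% after 4 h and 79.8% after 8 h. Most of the gap was thus there at 2 h, whereas a slope measures what grows with the hours. At 2 h the summed subunit level was 96376 in DMSO and 77449 in JQ1, against 82052 at 0 h. The summed labelled level was 34536 in DMSO and 27580.5 in JQ1, against 30128 at 0 h. How far the 2 h gap reflects a high DMSO 2 h library was not tested. The count of 5 rested on single libraries. It was 10 without AZ-5576 2 h and 5 without 0 h, 2 without DMSO 2 h, 3 without DMSO 4 h, 0 without DMSO 8 h, 1 without JQ1 4 h and 3 without JQ1 8 h.

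Over the JQ1 arm itself, 9 subunits fell and 2 rose from 0 h, beside 17.3% and 15% of all genes. The risers were PSMC6, with 281, 368 and 641 after 253 at 0 h, and PSMD9, with 723, 871 and 1562 after 876. Both had risen in DMSO too. Those that fell were PSMA2, PSMA4, PSMB5, PSMB7, PSMC3, PSMC5, PSMD1, PSMD7 and PSMD8, with slopes from −0.12 to −0.067. The 11 calls were 14 without AZ-5576 2 h and 11 without 0 h, but 7 without DMSO 2 h and 1 without JQ1 8 h.

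Compared directly at the same 1 µM dose, AZ-5576 gave a lower slope of total RNA than JQ1 for 16 subunits, beside 55% of all genes, and a higher one for none, beside 0.822%. The split by subcomplex was wide: 12 of 15 non-ATPase cap genes were lower, but 2 of 7 alpha subunits (PSMA3 and PSMA5), 1 of 7 beta subunits (PSMB1) and 1 of 6 ATPases (PSMC6). PSMC6 differed by −0.25 (SE 0.036, edgeR adjusted p = 4.69e-06), PSMD5 by −0.19 (SE 0.031, edgeR adjusted p = 1.69e-05) and ADRM1 by −0.18 (SE 0.028, edgeR adjusted p = 1.67e-05), while PSMD14 differed by −0.077 (SE 0.028, edgeR adjusted p = 0.0207). No difference was called for PSMB5 (−0.064, SE 0.029), PSMC4 (−0.054, SE 0.027), PSMB7 (−0.038, SE 0.027), PSMB6 (−0.015, SE 0.026), PSMA4 (−0.0049, SE 0.026) or PSMC3 (0.022, SE 0.028). The median was −0.064, against −0.13 for all genes. The count was 22 without AZ-5576 2 h and 17 without 0 h, 3 without AZ-5576 8 h and 4 without JQ1 8 h. With TMM scaling 4 were lower and 21 higher, beside 3130 lower and 2573 higher of all 11797 genes.

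Labelled reads carry the 4-thiouridine of the pulse, so their loss during the chase follows RNA made before it. In DMSO, 34 of 35 subunit genes lost labelled RNA, beside 88.3% of all genes lower and 0.0454% higher, and PSMC6 was the exception. Their median slope of −0.12 log2 units per hour corresponds to a half-life of 8.1 h, against −0.22 and 4.5 h for all genes. Growth during the chase also dilutes the label, so these half-lives are not corrected for it. By subcomplex the half-life at the median slope was 11.3 h for beta subunits, 9.3 h for alpha subunits, 7.1 h for ATPases and 6.3 h for the non-ATPase cap genes. The count was 31 without the AZ-5576 2 h library, 34 without the 0 h library and 7 without DMSO 8 h.

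**Figure D3:**
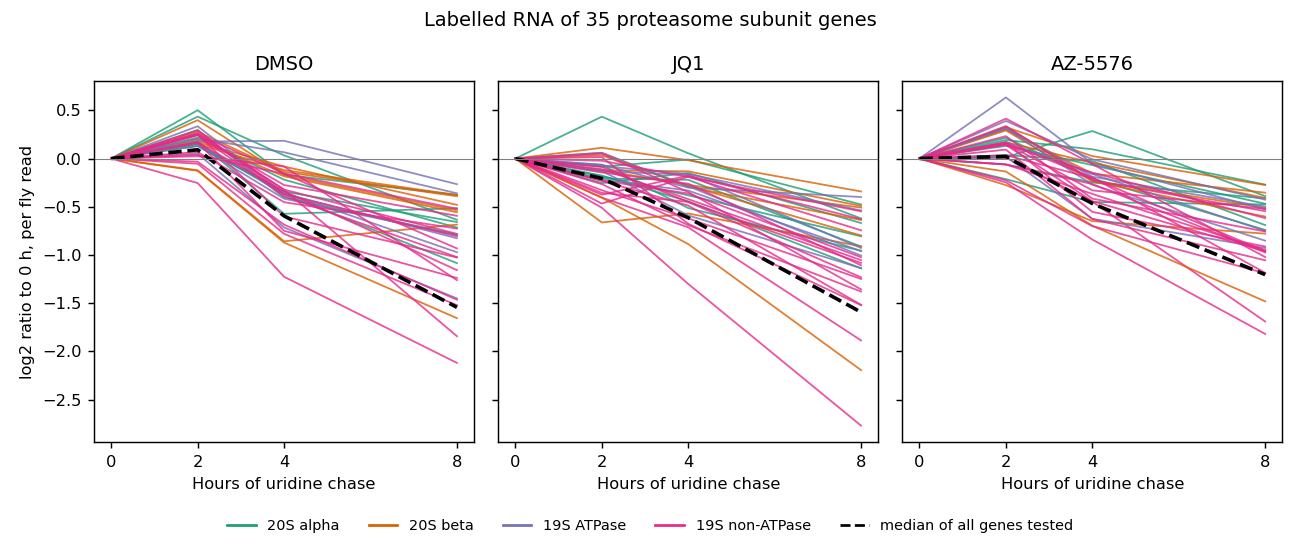
Labelled RNA of each of the 35 subunit genes against the 0 h library, per fly read, as a log2 ratio (vertical axis) over hours of chase (horizontal axis), with 1 panel per arm and the median of all 8817 genes dashed. In DMSO and JQ1 most subunit lines end above the median of all genes at 8 h, and the lowest line at 8 h in each arm is that of PSMD7.

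PSMD7 was lost fastest. Its labelled level went from 514 at 0 h to 430, 219 and 118 in DMSO, a slope of −0.29 (SE 0.037, edgeR adjusted p = 5.7e-14) and a half-life of 3.4 h. PSMD12, a lid subunit, had a slope of −0.27 (SE 0.035, edgeR adjusted p = 1.91e-13, half-life 3.7 h) and went from 758 to 910, 605 and 211. PSMB5 went from 1116 to 1021, 610 and 354, with a slope of −0.23 (SE 0.033, edgeR adjusted p = 8.02e-12) and a half-life of 4.3 h. Its fellow protease subunits kept their label longer: PSMB7 had a slope of −0.10 (SE 0.030, half-life 10.0 h) and PSMB6 of −0.065 (SE 0.028, half-life 15.4 h), the latter with 3000 at 0 h and 3334, 2761 and 2309 in DMSO. ADRM1 had a half-life of 4.4 h (slope −0.23, SE 0.040), PSMD14 of 6.3 h (slope −0.16, SE 0.032) and PSMC4 of 14.2 h (slope −0.070, SE 0.029).

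PSMC6 stood at the other end, with a slope of −0.051 (SE 0.039, edgeR adjusted p = 0.209). Its labelled level was 147 at 0 h and 166, 167 and 122 in DMSO, so the 2 h and 4 h libraries were above the start. The 2 h DMSO library was above 0 h for 30 of the 35 labelled genes, with a median of 113%, and the loss showed from 4 h on. This count was not set against all genes. All human reads per fly read, labelled or not, were also higher in that library, at 9.64 against 8.18 at 0 h. Fast and slow loss did not follow the change in total RNA in DMSO. Over the 35 genes the Pearson correlation of the labelled and the total slope was 0.097 (Spearman 0.098), although the slopes share their libraries and fly scale. PSMC6 and PSMD9, the steepest risers in total RNA, had labelled half-lives of 19.7 h and 8.1 h, and ADRM1, which also rose, one of 4.4 h.

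Per fly read, no subunit was called different from DMSO in its loss of labelled RNA under either inhibitor, which at n = 1 does not show equal loss. For AZ-5576 against DMSO edgeR called 0 of 35 subunits, with 0 at an unadjusted p under 0.05 and 0 by DESeq2, beside 1.22% of all genes lower and 3.53% higher. The differences ran from −0.074 for PSMC6 (SE 0.041, edgeR adjusted p = 0.347) to 0.063 for PSMD12 (SE 0.033, edgeR adjusted p = 0.313), with a median of 0.010 against 0.030 for all genes. The protease subunits lay at 0.024 (PSMB5, SE 0.032), 0.0047 (PSMB6, SE 0.029) and 0.0060 (PSMB7, SE 0.030), and PSMC4, PSMD14 and ADRM1 at −0.0048, 0.0093 and 0.0031. PSMC1, an ATPase, was at 0.054 (SE 0.036) and PSMD9 at −0.014 (SE 0.035). The count was 0 without any 1 library. With TMM scaling, whose library sizes come from total RNA, all 35 were higher, beside 7726 higher and 27 lower of all 8817 genes. The loss is therefore described per fly read.

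**Figure D4:**
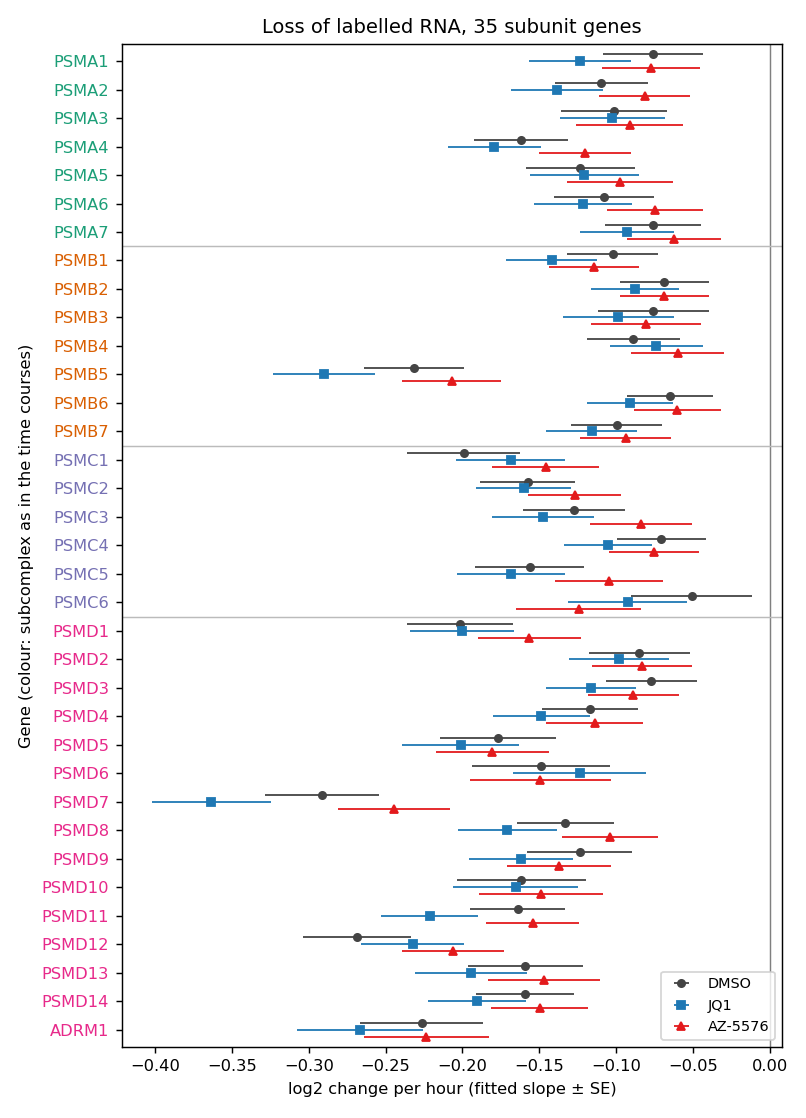
Fitted slope of labelled RNA in log2 units per hour (horizontal axis) for each subunit gene (rows, grouped by subcomplex) in DMSO, JQ1 and AZ-5576, with bars of 1 SE. The 3 arms lie close together for most genes, and PSMD7, PSMD12, PSMB5 and ADRM1 are the lowest in DMSO.

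For JQ1 against DMSO edgeR called 0 of 35 subunits as well, with 0 at an unadjusted p under 0.05 and 0 by DESeq2, beside 0.352% of all genes lower and 0.318% higher. The differences ran from −0.072 for PSMD7 (SE 0.038, edgeR adjusted p = 0.696) to 0.036 for PSMD12 (SE 0.033, edgeR adjusted p = 0.932). Their median was −0.023, against −0.014 for all genes. The count was 0 without the AZ-5576 2 h library and 0 without the 0 h library. PSMB5 was at −0.059 (SE 0.032), ADRM1 at −0.040 (SE 0.041), PSMC4 at −0.035 (SE 0.030), PSMD14 at −0.031 (SE 0.032), PSMB6 at −0.026 (SE 0.029) and PSMB7 at −0.016 (SE 0.030), while PSMC1 was at 0.031 (SE 0.037). The median slope was −0.15 in JQ1 (half-life 6.8 h, 35 of 35 called, beside 90.8% of all genes lower and 0.113% higher) and −0.11 in AZ-5576 (8.8 h, 34 of 35, beside 85.1% and 0.034%). PSMB4 was the gene not called in AZ-5576. The JQ1 count was 34 without AZ-5576 2 h and 35 without 0 h, and the AZ-5576 count 33 and 34. They dropped to 14 in JQ1 without JQ1 8 h and 6 in AZ-5576 without AZ-5576 8 h. By TMM the AZ-5576 arm had 4 lower and 6 higher, beside 2725 lower and 458 higher of all 8817 genes.

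Between the inhibitors 1 subunit differed in labelled loss, beside 4.53% of all genes higher and 1.03% lower under AZ-5576. This was PSMD7, with labelled levels of 433, 287 and 145 in AZ-5576 against 360, 208 and 75.0 in JQ1. The difference was 0.12 (SE 0.037, edgeR adjusted p = 0.0341), and every AZ-5576 value was above the JQ1 value of the same time. The call was lost without any 1 library other than DMSO 2 h, DMSO 8 h and 0 h, with 0 subunits called without AZ-5576 2 h and 4 without 0 h, so it is a borderline value. The 3 arms share the 0 h library, and their half-lives stand side by side as follows. PSMD7 had 3.4 h in DMSO, 2.8 h in JQ1 and 4.1 h in AZ-5576. PSMB5 had 4.3, 3.4 and 4.8 h, ADRM1 4.4, 3.7 and 4.5 h, and PSMB6 15.4, 11.0 and 16.6 h in the same order. In each arm PSMB6 was the longest-lived of these 4 and PSMD7 the shortest-lived, while PSMC6, whose loss was not called in DMSO, had 10.8 h in JQ1 and 8.0 h in AZ-5576.

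The labelled share of a gene's reads joins both measures. After the pulse it ran from 19.1% for ADRM1 (17.4% to 20.9%) to 70.2% for PSMD10 (65.2% to 74.9%), a further assembly chaperone of the ATPase ring. A high share did not go with fast loss: the Pearson correlation of the 0 h share with the labelled slope in DMSO was −0.14 over 35 genes (Spearman −0.14). PSMD7, the fastest, had 29.8% and PSMD12 66.3%. It went with the T content of the last 200 bases of the GENCODE v29 transcript, the only bases that 4-thiouridine can replace, with a correlation of 0.72 (Spearman 0.72). ADRM1 had 16.5% T and the lowest share. Shares are therefore compared within a gene only.

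**Figure D5:**
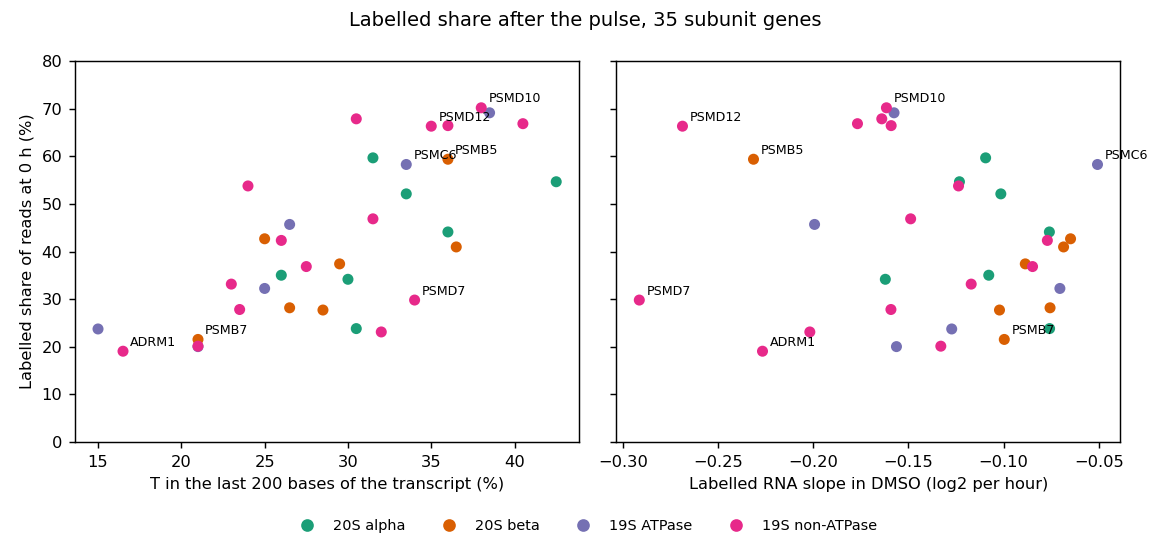
Labelled share of total reads at 0 h in percent (vertical axis) for the 35 subunit genes against the T content of the last 200 transcript bases in percent (left) and against the slope of labelled RNA in DMSO in log2 units per hour (right), with points coloured by subcomplex. The share climbs with T content, from 19.1% for ADRM1, and shows no such order with the slope.

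Within genes the share at 8 h was below that at 0 h for all 35 subunits in DMSO and in JQ1, but for 14 of 35 in AZ-5576, with 21 above it. For PSMB5 it started at 59.4% and after 8 h stood at 15.0% (DMSO), 20.2% (JQ1) and 53.4% (AZ-5576). In the same order PSMD5 went from 66.9% to 12.0%, 15.2% and 56.9%, and PSMD7 from 29.8% to 6.98%, 7.69% and 23.0%. For PSMA7 the share went from 23.8% to 18.1%, 18.5% and 23.7%. Over all subunits the share of the summed reads was 36.7% before the chase, and its end values were 19.7% (DMSO), 22.7% (JQ1) and 39.3% (AZ-5576). For all human reads the share was 32.0% at 0 h and 13.2% (DMSO), 14.7% (JQ1) and 25.5% (AZ-5576) at 8 h, so it fell in each arm. Gene by gene, shares were counted for the subunits only. Among the subunits the largest drop in AZ-5576 was that of PSMD14, from 66.5% to 54.3%, and the share of ADRM1 went from 19.1% to 10.8%. With AZ-5576 the labelled reads of the subunits were at a median of 59.8% and the unlabelled reads at 57.5% of their 0 h level by 8 h.

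Unlabelled reads, the total less the labelled ones, hold both RNA made during the chase and RNA that escaped the label. In DMSO they grew: at 8 h they were at a median of 148% of 0 h, and 31 of 35 subunits were above it, although less than the 274% of all genes. The growth was largest in the non-ATPase cap genes, with a median of 250%, against 119% for beta and 147% for alpha subunits. In JQ1 the median was 117% and 22 of 35 were above 0 h. In AZ-5576 all 35 were below it. At 8 h the unlabelled reads of AZ-5576 were at a median of 31.4% of DMSO, with PSMD5 at 10.7% (9.29% to 12.2%), PSMC6 at 11.2% and PSMB5 at 17.4% at one end, and PSMA7 at 76.4% (73.4% to 79.4%) and PSMC3 at 68.1% at the other. The labelled reads in the same library were at a median of 106% of DMSO, so the gap in total RNA of the subunits lay in the unlabelled reads. Apart from the 274%, the counts and medians of this paragraph were not set against all genes. In total RNA all genes stood further below DMSO at 8 h than the subunits, so no trait particular to the subunits is stated.

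Other genes of the pathway were also lower under AZ-5576 per fly read, as were 73.3% of all genes, whose median difference was −0.19. By TMM 3253 of all 11797 genes were lower and 2434 higher, which stands beside each TMM count of a gene list below. Of 10 regulators of the subunit genes all 10 were lower than in DMSO, with a median of −0.23 per hour (4 lower and none higher by TMM, median −0.052). The largest differences were those of the NFE2L1 partners MAFF (−0.49) and MAFK (−0.45), of NFE2L2 (−0.39), the oxidative stress factor of the same family, and of SEL1L (−0.32), which serves protein disposal at the endoplasmic reticulum. NFE2L1 itself had 668 at 0 h, 996, 832 and 747 in DMSO and 792, 553 and 191 in AZ-5576, a difference of −0.22 (SE 0.040, edgeR adjusted p = 4.88e-05). These regulators had short-lived labelled RNA, with a half-life of 3.4 h at their median slope in DMSO against 8.1 h for the subunits, and the slower loss of MAFG under AZ-5576 passed the threshold (0.14, SE 0.038, edgeR adjusted p = 0.0145).

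All 6 genes of a list of assembly chaperones and all 12 of a list of proteasome-associated proteins were lower under AZ-5576, with medians of −0.21 and −0.22, near the −0.19 of all genes, of which 73.3% were lower (by TMM 2 lower and 1 higher, and 6 lower and 1 higher). PSMG3, which helps to build the alpha ring, had 976 at 0 h, 1349, 1899 and 2466 in DMSO and 933, 480 and 226 in AZ-5576, with a difference of −0.43 (SE 0.035, edgeR adjusted p = 4.61e-09). PSMG4, its partner, was at −0.32, PAAF1 at −0.24 and PSMG1 at −0.19. AKIRIN2, which brings proteasomes into the nucleus, was at −0.42, the ligase UBE3C at −0.37, ECPAS at −0.32 and the shuttle factor UBQLN1 at −0.29. PSMG3 and PSMG4 had risen in DMSO, at 0.16 and 0.18, and both were lower under JQ1 than in DMSO too, at −0.16 and −0.18.

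Among ubiquitin and ubiquitin-activating genes, UBA6, an activating enzyme, was lower under AZ-5576 (−0.39), as were the polyubiquitin gene UBB (−0.12) and the main activating enzyme UBA1 (−0.093), and by TMM UBB and UBA1 were higher instead. Of the 5 activators and inhibitor, PSME4 (−0.25), PSME3 (−0.13) and PSMF1 (−0.097) were lower, and by TMM none was lower and 3 were higher. Of the 5 immunoproteasome and tissue subunits PSMB10 alone passed the minimum count, with 603 at 0 h, and PSMB8, PSMB9, PSMB11 and PSMA8 had at most 9 reads in any library. PSMB10 fell in DMSO (−0.097, SE 0.033, edgeR adjusted p = 0.0326), and its difference under AZ-5576 was −0.0057, or higher past the threshold by TMM (0.17).

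For comparison, 2 other sets of cytosolic genes were read in the same way, of which 6 of 8 and 7 of 20 rose in DMSO. All 8 genes of the CCT chaperonin, which folds actin and tubulin, were lower under AZ-5576 (median −0.18, beside −0.19 and 73.3% lower for all genes), led by CCT2 at −0.24, CCT6A at −0.20, CCT5 at −0.19 and CCT3 at −0.19. Of 20 cytosolic tRNA synthetases 18 were lower (median −0.16), led by TARS1 and AARS1 at −0.28 each, RARS1 at −0.25 and FARSA at −0.22. By TMM 1 CCT gene was lower and 2 higher, and 3 synthetases were lower and 6 higher. The subunit median was −0.12, with the cap genes at −0.15 and the alpha subunits at −0.060. Under JQ1 1 CCT gene (CCT5) and 5 synthetases were lower, beside 16.2% of all genes, with medians of −0.064 and −0.070 against −0.051 for the subunits. These medians were not tested against each other.

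Some subunit counts are uncertain because other genes overlap them or resemble them, and no source at hand states whether counting used the strand. Genes on the opposite strand held reads equal to 67.8% of those of PSMC2, 53.3% of PSMA3 and 39.9% of PSMD5, and 10.0% to 19.9% of PSMA2, PSMC1, PSMC5 and PSMD6. An overlapping ribosomal pseudogene on the same strand held 127% of the reads of PSMC2, and CFAP251 14.4% of those of PSMD9. Processed pseudogenes of PSMB3, PSMC1 and PSMA6 held 6.39%, 5.84% and 4.22% of the parent reads. Of the genes described in most detail, PSMC6 (chromosome 14, 52707172 to 52728587, plus strand), PSMB5 (chromosome 14, 23016543 to 23035230, minus strand) and PSMB6 (chromosome 17, 4796144 to 4798503, plus strand) had no such reads on the opposite strand or from pseudogenes, and ADRM1 and PSMD7 had 3.90% and 2.26% on the opposite strand.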

How the data were processed

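The authors deposited 3 tables of read counts per gene from 3′ end libraries: all human reads, human reads called labelled (T-to-C conversions after iodoacetamide), and fly reads. The tools named in the submitters' processing notes are bedtools, Trim Galore (0.6.5) and, for base calls, bcl2fastq (version 2.17.1.14); the builds named there are hg38 and dm6. The rule for calling a read labelled was not stated there or in the labels, and a gene with few T near its end has fewer chances to be called. Per the labels' protocols, fly RNA was added after alkylation and clean-up, so it does not correct for losses before that step. Genes were named from a table of gene symbols, which covered 55381 of 59204 human genes listed, and otherwise by the GENCODE v29 name where there was one. Positions and gene types came from GENCODE v29.

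Each gene with a mean count of at least 20 was fitted with edgeR 4.0.16 (quasi-likelihood test, R 4.3.3), with the fly total as library size, a common 0 h level and 1 slope per arm (6 residual degrees of freedom). P-values were Benjamini-Hochberg adjusted over all 11797 total or 8817 labelled genes, with a threshold of 0.05. A half-life is 1 divided by the size of the slope. Ratios of single libraries used a pseudocount of 0.5 and exact (Clopper-Pearson) 95% intervals, for counting error only. With n = 1 per condition, p-values measure scatter between these libraries. The script was tested on simulated data. Alternatives were TMM and DESeq2 1.42.0 size factors, TMM of fly genes, other count minimums, the DESeq2 test, time levels, fewer arms, and leaving out each library. Those for single arms other than DMSO and for labelled AZ-5576 against JQ1 were chosen after seeing the data.

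The members and gene lists were chosen with earlier results of these data known. Named in each comparison were PSMB5, PSMB6, PSMB7, PSMC4, PSMD14, ADRM1 and the 2 highest and 2 lowest genes, and up to 4 genes past the threshold per other list; further genes were named after their values were seen. Not every gene of these lists is reported here.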

Additional observations from a re-analysis of the deposited data

How the results depend on the processing

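No paired analysis was possible because each condition had 1 library and the labels share no replicate numbers between groups. TMM and DESeq2 size factors, taken from total human reads, place the subunits relative to other genes and turned many directions. With TMM and size factors in turn, the subunits called were 24 and 22 for total AZ-5576 against DMSO (medians 0.052 and 0.064), 1 and 2 for JQ1 against DMSO (0.0015 and 0.0087), 25 and 24 for AZ-5576 against JQ1 (0.059 and 0.064), 19 and 21 for the DMSO arm (−0.033 and −0.041), 20 and 20 for the JQ1 arm, and 7 and 9 for the AZ-5576 arm (0.026 and 0.031). For labelled RNA they were 35 and 35 for AZ-5576 against DMSO, 35 and 35 for AZ-5576 against JQ1, and 10 and 11 in AZ-5576 (0.020 and 0.025), and the JQ1 against DMSO medians were 0.031 and 0.038. Total AZ-5576 against DMSO turned to 0.117 and 0.129 for PSMB6, 0.080 and 0.092 for PSMB7, 0.053 and 0.065 for PSMC4, 0.047 and 0.060 for PSMD14, 0.128 and 0.140 for PSMC3, and 0.141 and 0.153 for PSMA7. AZ-5576 against JQ1 turned to 0.058 and 0.063 for PSMB5, 0.107 and 0.112 for PSMB6, 0.084 and 0.089 for PSMB7, 0.068 and 0.073 for PSMC4, 0.045 and 0.050 for PSMD14, and 0.117 and 0.122 for PSMA4. Size factors alone turned PSMB4 (JQ1 against DMSO, 0.054) and PSMC4 (DMSO, −0.042). Labelled AZ-5576 against DMSO turned to 0.100 and 0.112 for PSMC6, 0.161 and 0.173 for PSMD9, and 0.169 and 0.181 for PSMC4. Of all 11797 total RNA genes, size factors called 2901 lower and 2744 higher for AZ-5576 against DMSO. For AZ-5576 against JQ1 these counts were 2990 and 2724, and in the DMSO arm 2041 and 1749. Of all 8817 labelled genes, TMM and size factors called 7726 and 7916 higher for AZ-5576 against DMSO. For labelled AZ-5576 against JQ1 they called 6945 and 7063 higher. The model with time levels, which holds 1 difference for all times, called 0 subunits in the total RNA comparisons of AZ-5576 against DMSO, JQ1 against DMSO and AZ-5576 against JQ1. It called 0 for labelled AZ-5576 against JQ1 too. For total AZ-5576 against DMSO it called 281 of 11797 genes lower and 10 higher, and why it called fewer was not tested. With no count minimum, JQ1 against DMSO had 3 and labelled AZ-5576 against JQ1 had 0, and DESeq2 gave 2 for the latter. With 1 library left out, counts ran from 10 to 34 (AZ-5576 against DMSO), 0 to 10 (JQ1 against DMSO), 3 to 22 (AZ-5576 against JQ1), 1 to 8 (DMSO), 1 to 14 (JQ1) and 0 to 35 (AZ-5576) in total RNA. In labelled RNA they ran from 0 to 0 for each inhibitor against DMSO, 0 to 4 (AZ-5576 against JQ1), 7 to 34 (DMSO), 14 to 35 (JQ1) and 6 to 34 (AZ-5576). The lowest counts without an 8 h library came with fewer and shorter time points. Beyond these, 27 values under other settings and 20 with a library left out changed sign with no call in either.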
